A study of Mus musculus with 9 samples.

Results

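The proteasome is the large protease that degrades proteins marked with ubiquitin, and 48 mouse genes named as parts or partners of it were followed in liver, out of 12393 genes with a named probe set on the array. Members were all genes whose symbol in the platform annotation starts with Psm, a letter from a to g and a digit. Probe sets with several symbols were not used, and the brightest probe set by mean log2 signal over the 9 arrays stood for its gene. The rule used names and overall brightness, not differences between groups. By role the members were 8 alpha and 7 constitutive beta subunits of the core particle and the 3 inducible beta subunits of the immunoproteasome. The base of the regulatory particle gave 6 ATPases and 3 other subunits, and the lid gave 8 subunits. The remaining members were 3 activators, 1 inhibitor, 3 chaperones of base assembly, 4 chaperones of core assembly and 2 genes, Psmc3ip and Psme3ip1, that are named after a subunit but are not subunits. The activator Psme2 has a probe set only together with Psme2b and was not named.

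The study compared 3 transgenic mouse models that vary in NADPH-cytochrome P450 reductase (Cpr), which supplies microsomal P450 enzymes with electrons. By their names, Liver-Cpr-null mice have no Cpr in the liver and Cpr-low mice have little of it. Cpr-lox mice, whose name stands for a lox-flanked Cpr allele, served as the control. All mice were males aged 2 months on a mixed background of C57BL/6 and 129/Sv, with 8 or 9 per model. Liver RNA was combined into 3 pools per model, each hybridized to 1 Affymetrix MOE430A array, so an array averages several mice and n is 3 pools per model. What drives the deletion in liver and which alleles lower Cpr in Cpr-low mice are not given in the sources used here, and the Cpr gene itself was not analysed here.

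The core particle is a barrel of stacked rings in which the beta subunits Psmb5, Psmb6 and Psmb7 cut peptide bonds and the alpha subunits control entry. The regulatory particle caps the barrel: its base ATPases unfold substrates and thread them in, its receptors hold ubiquitin chains, and its lid subunit Psmd14 removes the chains. Interferons induce Psmb8, Psmb9 and Psmb10, which take the places of Psmb5, Psmb6 and Psmb7 and favour peptides for class I antigen presentation. In liver the proteasome is known for the removal of damaged proteins and of some membrane proteins of the endoplasmic reticulum, P450 enzymes among them.

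Values below are deposited signals scaled to a common trimmed mean. Log2 fold changes come with their SE and use log2(signal + 16), which shrinks the changes of dim genes. All p-values are limma's, adjusted over the 8879 genes tested, and a gene was called where the adjusted p was under 0.05. The arrays had median deposited signals of 171 to 179. Across tested genes the correlation was 0.984 to 0.995 within a model and 0.969 to 0.988 between models. Hybridization took place on 2 dates, the earlier with all Cpr-lox pools and pool 1 of Cpr-low, the later with all other pools. The Cpr-lox arrays had a scan date of their own, so control status and scanning cannot be told apart. On the first principal component pool 1 of Cpr-low lay at -17.1, away from pools 2 and 3 at -7.42 and -3.92, and its trimmed mean was the lowest. All 12 hepatocyte markers were bright, with no signal under 5872. One of them, Apob, varied widely between the Cpr-low pools, at 12893 ± 6123 (SD) against 16691 ± 548 in Cpr-lox. The sources used here do not say whether mice were shared between pools, so the p-values reflect the spread between pools and nothing more. In whole liver, fewer cells of a type and less RNA per cell cannot be told apart.

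Of the 48 members 46 were bright enough to be tested. Psma8, an alpha subunit known from testis, lay between 63.8 and 75.4 on the 9 arrays, under the filter at a signal of 128. Psmd10, a base assembly chaperone, was at 99.6, 117 and 121 in Cpr-lox, 127, 131 and 128 in Cpr-low, and 124, 129 and 122 in liver-Cpr-null. Its Cpr-lox pools were all below the others. Without the filter its log2 fold changes, 0.17 ± 0.07 in Cpr-low and 0.14 ± 0.07 in liver-Cpr-null, were not called (adjusted p = 0.284 and 0.428).

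The question of the first comparison was how the proteasome genes of Cpr-low livers differed from those of Cpr-lox livers. In Cpr-low, 14 of the 46 tested members fell and 0 rose, so 30.4% were called, beside 5.79% of all 8879 genes, of which 3.48% fell and 2.31% rose. At an unadjusted p under 0.05 in limma, 24 were lower and 1 was higher, beside 834 lower and 756 higher of all 8879 genes. The log2 fold change was below 0 for 38 of the 46, beside 3232 of the 8879. The members' median was -0.21, beside 0.04 over all genes. All Cpr-low pools lay below all Cpr-lox pools for 25 members, or 54.3%, beside 10.6% of all genes, and above them for 3 members, or 6.52%, beside 10.9% of all genes. The falls were moderate: the 14 called log2 changes lay between -0.63 and -0.38, and the changes in signal between -35.6% and -23.1%. The heat map of each gene by pool shows them across the Cpr-low pools.

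**Figure D1:**
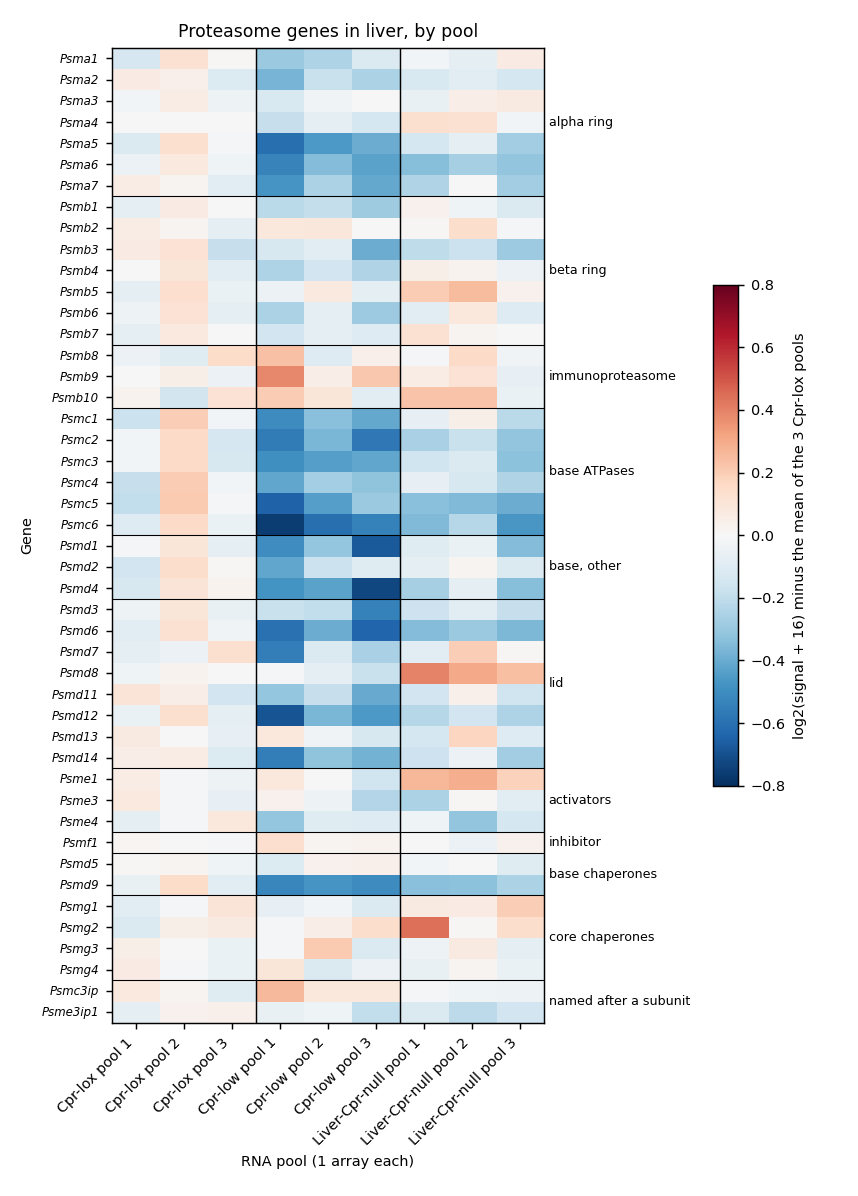
Each row is 1 of the 46 tested proteasome genes, grouped by role, and each column is 1 RNA pool; colour gives log2(signal + 16) minus the mean of the 3 Cpr-lox pools, blue for lower and red for higher. The base ATPases are blue in all Cpr-low pools, with pool medians of -0.53, -0.40 and -0.41, while the constitutive beta ring is pale, with -0.15, -0.08 and -0.24.

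The regulatory particle held most of the falls: 10 of the 17 subunits matched by the name rule fell in Cpr-low. The 17 had a median of -0.42, and all their log2 fold changes were below 0. Sem1, a lid subunit that the rule does not match, was at 0.02 (adjusted p = 0.942). In the base, 7 of 9 fell (median -0.46), and in the lid 3 of 8 (median -0.31). In the constitutive core particle 3 of 14 tested subunits fell (median -0.21), 3 of 7 in the alpha ring and 0 of 7 in the constitutive beta ring, whose medians were -0.27 and -0.20. None of the 3 immunoproteasome subunits (median 0.07), 3 activators (median -0.08) or 4 core assembly chaperones (median 0) were called. At an unadjusted p under 0.05 in limma, 3 constitutive beta subunits were lower, 1 immunoproteasome subunit was higher and 0 activators or core chaperones differed. Whether the roles differ from each other was not tested. In every Cpr-low pool the median over the base ATPases was lower than the median over the constitutive beta ring.

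Among the base ATPases, the ring of motor subunits that unfolds substrates, Psmc6 had the lowest Cpr-low log2 fold change of all members. Its signal was 992, 1187 and 1028 in the Cpr-lox pools, 623, 696 and 728 in the Cpr-low pools, and 832, 908 and 769 in the liver-Cpr-null pools. The 3 groups did not overlap, with Cpr-low lowest and liver-Cpr-null between. In Cpr-low the gene fell by 0.63 ± 0.10 on the log2 scale (adjusted p = 0.0016), and its signal fell by 35.6%.

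Psmc2, another ATPase, was at 2303, 2608 and 2134 in Cpr-lox and at 1586, 1814 and 1569 in Cpr-low, and fell by 0.50 ± 0.09 (adjusted p = 0.00578). Psmc3 was at 1392, 1574 and 1294 in Cpr-lox and at 1002, 1037 and 1059 in Cpr-low, and fell by 0.45 ± 0.09 (adjusted p = 0.00915). For both ATPases the Cpr-low pools lay below all Cpr-lox pools. Psmc5 was at 957, 1271 and 1092 against 695, 806 and 890 (-0.46 ± 0.11, adjusted p = 0.0248), and Psmc1 at 847, 1101 and 942 against 672, 756 and 718 (-0.41 ± 0.10, adjusted p = 0.0319). These 2 genes had a wider spread over the Cpr-lox pools, with pool 2 highest, and both lost the call without that pool (adjusted p = 0.124 and 0.152). Other pools mattered too. Psmc5 also lost the call without Cpr-lox pool 3 or Cpr-low pool 1 or 2 (adjusted p = 0.0599 to 0.0976). Psmc1 also lost it without Cpr-lox pool 3 or any 1 of the Cpr-low pools (adjusted p = 0.0577 to 0.112). Psmc3 lost it without Cpr-lox pool 2 (adjusted p = 0.0526). Psmc4, the remaining ATPase, was at 788, 1036 and 882 in Cpr-lox and 667, 740 and 713 in Cpr-low. It did not pass the test (-0.34 ± 0.10, adjusted p = 0.0686), although its groups did not overlap either.

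The other base subunits dock substrates and ubiquitin chains. Psmd4, an intrinsic ubiquitin receptor, was at 2144, 2522 and 2391 in Cpr-lox and at 1680, 1744 and 1408 in Cpr-low. Psmd1, a scaffold of the base, was at 1124, 1217 and 1077 in Cpr-lox and at 801, 917 and 708 in Cpr-low. Both genes were lower in every Cpr-low pool, with pool 3 lowest, and fell by 0.54 ± 0.10 (Psmd4, adjusted p = 0.00648) and 0.49 ± 0.11 (Psmd1, adjusted p = 0.0149). Psmd2, the other scaffold, had overlapping groups (1158, 1425 and 1298 against 961, 1144 and 1203) and was not called (-0.23, adjusted p = 0.254).

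In the lid, a clamp of scaffold subunits around the deubiquitinase Psmd14, 3 members fell and 5 were not called. Psmd6, a lid scaffold, was at 2744, 3178 and 2868 in Cpr-lox, 1926, 2216 and 1882 in Cpr-low, and 2300, 2380 and 2273 in liver-Cpr-null, and fell by 0.54 ± 0.08 in Cpr-low (adjusted p = 0.0019). Psmd12, another scaffold, was at 1497, 1704 and 1475 in Cpr-lox and 958, 1206 and 1127 in Cpr-low, and fell by 0.50 ± 0.09 (adjusted p = 0.00654). Psmd14 was at 1175, 1184 and 1049 in Cpr-lox and 769, 904 and 869 in Cpr-low, and fell by 0.42 ± 0.09 (adjusted p = 0.0154). All 3 were lower in every Cpr-low pool than in any Cpr-lox pool. Psmd3 (-0.30, adjusted p = 0.105), Psmd7 (-0.31, adjusted p = 0.144) and Psmd11 (-0.30, adjusted p = 0.0809) had groups that did not overlap but missed the threshold. Psmd13 was at 630, 597 and 573 against 636, 587 and 548 (-0.02, adjusted p = 0.908), and Psmd8, which completes the assembled lid, at 2090, 2181 and 2142 against 2125, 2035 and 1890 (-0.08, adjusted p = 0.594). The 8 lid members therefore ranged from -0.54 to -0.02.

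Psmd9, a chaperone that brings base ATPases together before the regulatory particle forms, also fell in Cpr-low. It was at 811, 935 and 794 in Cpr-lox, 583, 604 and 592 in Cpr-low, and 665, 670 and 706 in liver-Cpr-null. Its Cpr-low pools lay close together, and the 3 groups did not overlap. It fell by 0.50 ± 0.08 (adjusted p = 0.00219). Psmd5, the other base chaperone tested, was at 591, 595 and 573 in Cpr-lox against 543, 601 and 604 in Cpr-low (-0.01, adjusted p = 0.945).

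In the alpha ring Psma5, Psma6 and Psma7 fell in Cpr-low. Psma5 was at 2012, 2381 and 2156 in Cpr-lox, 1429, 1577 and 1651 in Cpr-low, and 1973, 2060 and 1796 in liver-Cpr-null, and fell by 0.49 ± 0.09 in Cpr-low (adjusted p = 0.00587). Psma6 was at 2483, 2707 and 2505 in Cpr-lox, 1767, 2009 and 1904 in Cpr-low, and 2017, 2131 and 2053 in liver-Cpr-null, and fell by 0.44 ± 0.08 (adjusted p = 0.00406). Psma7 was at 1870, 1817 and 1690 in Cpr-lox and 1285, 1499 and 1346 in Cpr-low, and fell by 0.38 ± 0.09 (adjusted p = 0.0295). No Cpr-low pool reached a Cpr-lox pool for these genes. The other tested alpha subunits, Psma1 to Psma4, had log2 fold changes from -0.27 (Psma2, adjusted p = 0.0657) to -0.05 (Psma3, adjusted p = 0.754) and were not called.

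The 14 calls rested on all pools to different degrees. Of these 8, for Psma5, Psma6, Psmc2, Psmc6, Psmd4, Psmd6, Psmd9 and Psmd12, passed the test whichever pool was left out, the highest adjusted p being 0.0392. Without Cpr-lox pool 2 there were 8 calls and without Cpr-low pool 1 there were 9, all of them falls, beside 160 and 193 falls over all genes. Within the first hybridization date, which sets the 3 Cpr-lox pools against Cpr-low pool 1 alone, the members' median was -0.23 beside 0.11 over all genes, a value with no spread for Cpr-low. With the date as a block 16 were called, 15 that fell and 1 that rose, with 12 of the 14 among them. Calls over all genes grew as well, to 466 that fell and 624 that rose, from 309 and 205. The values with the block also rest on Cpr-low pool 1. Psmd4 (-0.48, adjusted p = 0.0544) and Psmd1 (-0.50, adjusted p = 0.0571) lost the call there. Other probe sets of the same genes mostly pointed the same way in a fit over all kept probe sets. Of the 14 genes 8 had another kept probe set, 9 in all, of which 8 were below 0 and 4 of these were called. The exception was the dimmer probe set of Psmd9, at 0.02 (adjusted p = 0.945), and with the mean of its probe sets the call of Psmd9 was lost (adjusted p = 0.0961).

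**Figure D2:**
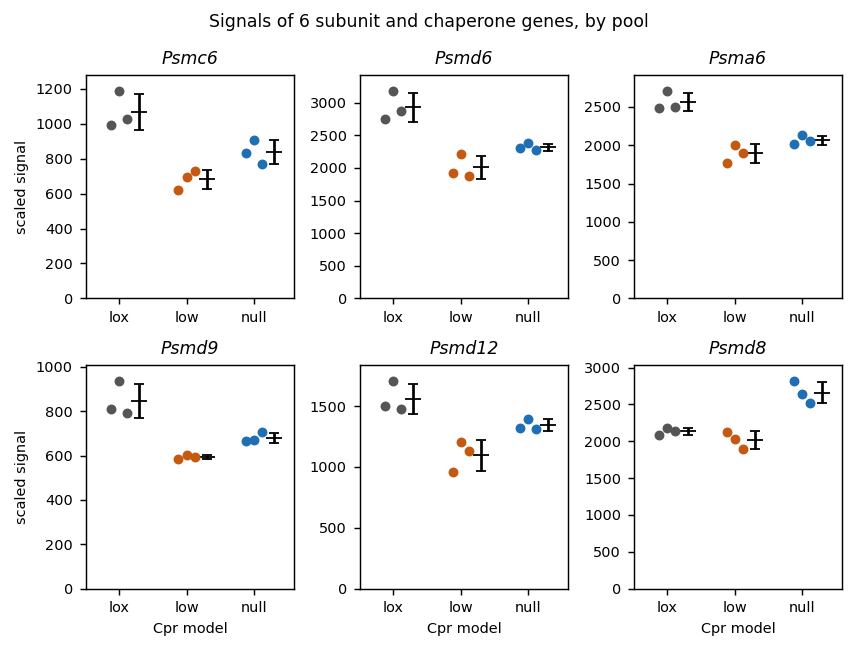
Scaled signal of 6 genes in each RNA pool of Cpr-lox (lox), Cpr-low (low) and liver-Cpr-null (null) livers, with the mean ± SD over 3 pools at the right of each group. Psmc6, Psmd6, Psma6, Psmd9 and Psmd12 are lowest in Cpr-low and intermediate in liver-Cpr-null, while Psmd8 lies at 2526 to 2815 in liver-Cpr-null and at 1890 to 2181 in the other models.

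The next comparison asked the same of liver-Cpr-null livers, and there few proteasome genes passed the test. Of the 46 members 4 fell (8.7%) and 1 rose (2.17%), beside 7.1% of all genes called in either direction, 3.44% that fell and 3.66% that rose. The members' median was -0.05, beside -0.04 over all genes. At an unadjusted p under 0.05 in limma, 10 were lower and 2 higher, beside 889 lower and 729 higher of all 8879 genes. The log2 fold change was below 0 for 32 of the 46, beside 5777 of the 8879. Of the 17 members in the regulatory particle (median -0.16), 15 were below 0, with 7 lower and 1 higher at that unadjusted p. In the base (median -0.20) all 9 were below 0, with 5 lower. In the constitutive core (median -0.02) 8 of 14 were below 0, with 2 lower. All liver-Cpr-null pools lay below all Cpr-lox pools for 9 members, or 19.6%, beside 15.6% of all genes, and above them for 2, or 4.35%, beside 9.96% of all genes. The share that fell was above that of all genes and the share that rose below it, on counts of 4 and 1.

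The genes that fell in liver-Cpr-null were Psma6, Psmc6, Psmd6 and Psmd9, all of which had also fallen in Cpr-low, and the values of each by pool are given above. Psmc6 had the largest of these falls, 0.35 ± 0.10 on the log2 scale or 21.4% (adjusted p = 0.0444), from 1069 ± 104 in Cpr-lox to 836 ± 69.7 (SD, n = 3 pools). Psmd6 fell by 0.33 ± 0.08 (adjusted p = 0.0305), from 2930 ± 223 to 2318 ± 55.8. Psma6 fell by 0.31 ± 0.08 (adjusted p = 0.0258) and Psmd9 by 0.31 ± 0.08 (adjusted p = 0.0339). For the base ATPase Psmc5, the liver-Cpr-null pools, at 867, 856 and 832, also lay below all Cpr-lox pools, but the difference of -0.36 was not called (adjusted p = 0.0703). Both comparisons use the same Cpr-lox pools, so a low or high control pool enters both. For all 14 genes that fell in Cpr-low, the liver-Cpr-null mean lay between the Cpr-low and Cpr-lox means; these genes were picked for a low Cpr-low value, and the order of the means is a description.

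Psmd8, the lid subunit that joins last, was the member that rose in liver-Cpr-null. Its pools were at 2815, 2643 and 2526 there, above every pool of Cpr-lox (2090, 2181 and 2142) and of Cpr-low (2125, 2035 and 1890). It rose by 0.31 ± 0.07 (adjusted p = 0.023), or by 24.2%. The other 7 lid members had log2 fold changes between -0.33 and 0.04 in liver-Cpr-null, and the lid subunit Sem1 was at 0.15 (adjusted p = 0.492).

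The calls in liver-Cpr-null depended on the settings. With the deposited scaling kept, or with arrays scaled to their medians, Psmd8 alone was called, so that the split of 1 gene up and 4 down became 1 up and 0 down. With quantile normalization the 4 falls were called and Psmd8 was not (0.27, adjusted p = 0.0862). Psmd8 also lost the call without any 1 of the Cpr-lox pools and without liver-Cpr-null pool 1 or 2 (adjusted p = 0.0567 to 0.12). The 4 falls were no sturdier: each lost its call without Cpr-lox pool 2, liver-Cpr-null pool 1 or liver-Cpr-null pool 3. Without Cpr-lox pool 2 the adjusted p in limma was 0.113 for Psma6, 0.19 for Psmc6, 0.136 for Psmd6 and 0.157 for Psmd9. Each also lost its call without at least 1 other pool. With the hybridization date as a block 0 members were called in limma (3 higher and 10 lower at an unadjusted p under 0.05). Calls over all genes shrank as well, to 52 that rose and 97 that fell, from 325 and 305. The log2 fold changes with the block were -0.45 for Psma6, -0.53 for Psmc6, -0.42 for Psmd6, -0.34 for Psmd9 and 0.43 for Psmd8. Their adjusted p lay between 0.0853 and 0.206. No hybridization date holds both Cpr-lox and liver-Cpr-null arrays, so no value within a date can be had. The values with the block link these models through Cpr-low pool 1, the only Cpr-low array of the first date. Their size therefore rests on that array. Without Cpr-lox pool 2 or without liver-Cpr-null pool 1 there were 0 calls as well, with 3 higher and 5 lower, and 2 higher and 7 lower, at an unadjusted p under 0.05. The ratio of 3′ to 5′ signal of the actin control probes, a measure of RNA integrity and labelling, lay between 1.62 and 1.99 for liver-Cpr-null and between 1.17 and 1.43 for the other models. The same ratio for the Gapdh control probes lay between 2.34 and 2.48 for liver-Cpr-null, between 2.6 and 2.79 for Cpr-lox and between 2.36 and 2.72 for Cpr-low. The part of either in these values was not tested. In the fit over all kept probe sets, each of the 4 genes that fell had a dimmer probe set, and none was called in liver-Cpr-null. These were at -0.16 for Psma6 (adjusted p = 0.336), -0.04 for Psmd6 (adjusted p = 0.968) and -0.16 for Psmd9 (adjusted p = 0.458). The dimmer probe set of Psmc6 was at 0.23 (adjusted p = 0.467), opposite in sign to the brightest. In that fit the brightest probe set of Psmc6 was not called either (adjusted p = 0.0521). With the mean of all kept probe sets 0 members fell and 1 rose.

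**Figure D3:**
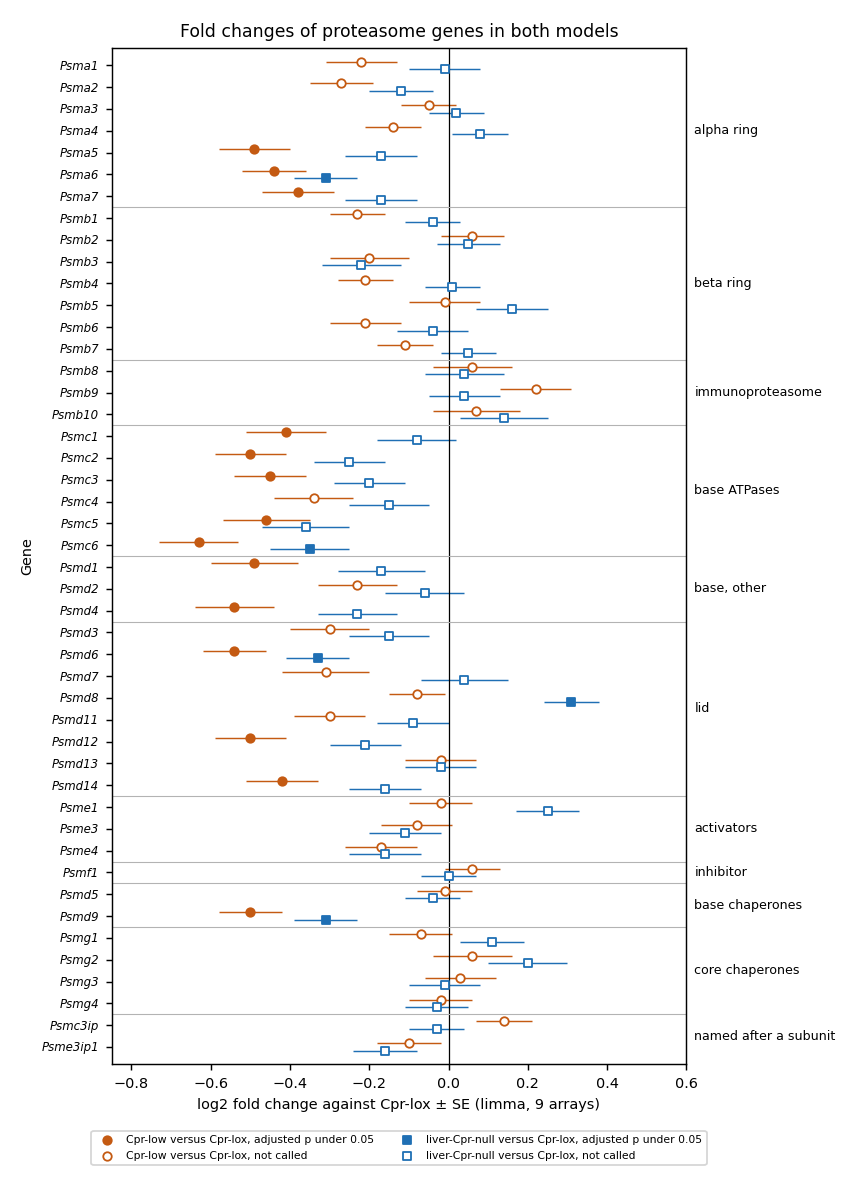
Log2 fold change ± SE against Cpr-lox for the 46 tested proteasome genes, by role, in Cpr-low (orange circles) and liver-Cpr-null (blue squares); filled symbols mark adjusted p under 0.05 in limma over 9 arrays. Filled circles, 14 in all, lie in the base, the lid, the alpha ring and at Psmd9, and 5 squares are filled.

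The promoters of these genes give the sequence context of genes that moved together. Nfe2l1, a transcription factor that restores proteasome subunit levels when the protease is inhibited, binds antioxidant response elements, and NF-Y binds CCAAT boxes, which are known from several proteasome promoters. RefSeq promoters (build GRCm38.p6) were found for 38 of the 46 members other than Psmc3ip and Psme3ip1. The 250 bases before each annotated start were searched on both strands, with a gene counted if any of its starts had a match. The letters TGACNNNGC, the core of the antioxidant response element, occurred in 5 of the 38 (13.2%), beside 11.5% of all 27025 genes with a promoter. Of the 13 genes with a promoter that fell in Cpr-low 3 held them (23.1%), and of the 24 tested members that did not fall 2 (8.33%). CCAAT occurred in 13 of the 38 (34.2%), in 6 of the 13 (46.2%) and in 6 of the 24 (25%), beside 37.5% of all genes. These are small counts of letter matches, which are not binding sites. The first 4 sequences are the 250 bases before the start of genes called in liver-Cpr-null, shown to set 3 that fell in both models beside Psmd8. Psma6 has 2 annotated starts and no antioxidant core at either. The last 3 are windows around the antioxidant core in Psmd12, which fell in Cpr-low, and in Psmb5 and Psmb6, which were not called. Each reads 5′ to 3′ on the strand of its gene, and capitals mark the antioxidant core on either strand. Of the sequences printed, that of Psmd9 alone also has capitals for the core of the interferon-stimulated response element, GAAA, any 2 bases and GAAA again. That core occurred in 3 of the 38 members (7.89%), beside 3.46% of all genes. The 3 were Psmd9, Psmd4 and Psmb3.
Psmc6 (chr14:45329574-45329823, plus strand): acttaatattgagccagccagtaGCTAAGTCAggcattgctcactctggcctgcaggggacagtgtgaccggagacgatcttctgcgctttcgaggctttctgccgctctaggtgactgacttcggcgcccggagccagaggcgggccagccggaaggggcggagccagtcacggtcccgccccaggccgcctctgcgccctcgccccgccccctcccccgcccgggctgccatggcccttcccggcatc
Psmd9 (chr5:123227940-123228189, plus strand): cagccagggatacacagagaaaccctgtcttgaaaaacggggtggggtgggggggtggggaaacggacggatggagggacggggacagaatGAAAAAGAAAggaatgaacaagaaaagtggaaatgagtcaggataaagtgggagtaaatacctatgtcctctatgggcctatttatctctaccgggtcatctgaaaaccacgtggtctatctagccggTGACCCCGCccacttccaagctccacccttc
Psmd6 (chr14:14120946-14121195, minus strand): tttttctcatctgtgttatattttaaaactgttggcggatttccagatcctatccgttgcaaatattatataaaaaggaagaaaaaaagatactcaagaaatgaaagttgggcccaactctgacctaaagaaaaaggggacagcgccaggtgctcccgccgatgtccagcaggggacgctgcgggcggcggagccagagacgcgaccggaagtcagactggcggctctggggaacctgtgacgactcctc
Psmd8 (chr7:29180674-29180923, minus strand): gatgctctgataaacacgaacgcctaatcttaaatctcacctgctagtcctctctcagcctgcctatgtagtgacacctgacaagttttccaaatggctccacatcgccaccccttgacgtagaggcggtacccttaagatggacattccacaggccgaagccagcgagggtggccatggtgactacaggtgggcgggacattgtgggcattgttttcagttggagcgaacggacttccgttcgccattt
Psmd12 (chr11:107479278-107479304, plus strand): tctGCTGTGTCAcatttgcccccctca
Psmb5 (chr14:54618019-54618057, minus strand): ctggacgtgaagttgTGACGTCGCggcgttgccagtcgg
Psmb6 (chr11:70525333-70525356, plus strand): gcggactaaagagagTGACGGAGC
Of the 4 genes that fell in both models, the antioxidant core was found in these windows for Psmc6 and Psmd9 and not for Psma6 and Psmd6, nor was it found for Psmd8.

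The catalytic subunits and their inducible counterparts are compared next, since their exchange marks the immunoproteasome. Psmb5, with chymotrypsin-like activity, was at 2078, 2409 and 2114 in Cpr-lox, 2124, 2321 and 2091 in Cpr-low, and 2533, 2616 and 2244 in liver-Cpr-null. Psmb6, with caspase-like activity, was at 2314, 2575 and 2257, then 1995, 2247 and 1938, then 2234, 2526 and 2210 in the same order of models. Psmb7, with trypsin-like activity, was at 4483, 4967 and 4698, then 4236, 4465 and 4380, then 5127, 4775 and 4716. Psmb6 and Psmb7 were lower in every Cpr-low pool than in any Cpr-lox pool, and Psmb5 overlapped throughout. No change was called: the log2 fold changes in Cpr-low were -0.01 (Psmb5, adjusted p = 0.95), -0.21 (Psmb6, adjusted p = 0.232) and -0.11 (Psmb7, adjusted p = 0.427), and those in liver-Cpr-null were 0.16, -0.04 and 0.05.

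The inducible subunits were all above the filter. Psmb8, which replaces Psmb5, was at 319, 308 and 367 in Cpr-lox, 391, 306 and 341 in Cpr-low, and 327, 370 and 323 in liver-Cpr-null. Psmb10, which replaces Psmb7, was at 548, 484 and 582, then 620, 576 and 502, then 632, 631 and 517. Both overlapped between all models, and their log2 fold changes in liver-Cpr-null were 0.04 (95% confidence interval -0.18 to 0.25) for Psmb8 and 0.14 (-0.09 to 0.36) for Psmb10. In Cpr-low they were 0.06 (-0.16 to 0.27) and 0.07 (-0.16 to 0.30). Of these intervals, that of Psmb10 in liver-Cpr-null alone reaches past the smallest called change of a member, 0.31.

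Psmb9, which replaces Psmb6, was at 287, 297 and 277 in Cpr-lox, 379, 298 and 336 in Cpr-low, and 299, 312 and 273 in liver-Cpr-null. Its Cpr-low pools lay above its Cpr-lox pools, by a margin of under 2 units of signal for pool 2. The log2 fold change in Cpr-low, 0.22 ± 0.09, was not called (adjusted p = 0.209). Blocking on the date gave 0.38, which was called (adjusted p = 0.0344), a value that rests on Cpr-low pool 1, the highest pool. In liver-Cpr-null it was 0.04 (-0.15 to 0.23).

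**Figure D4:**
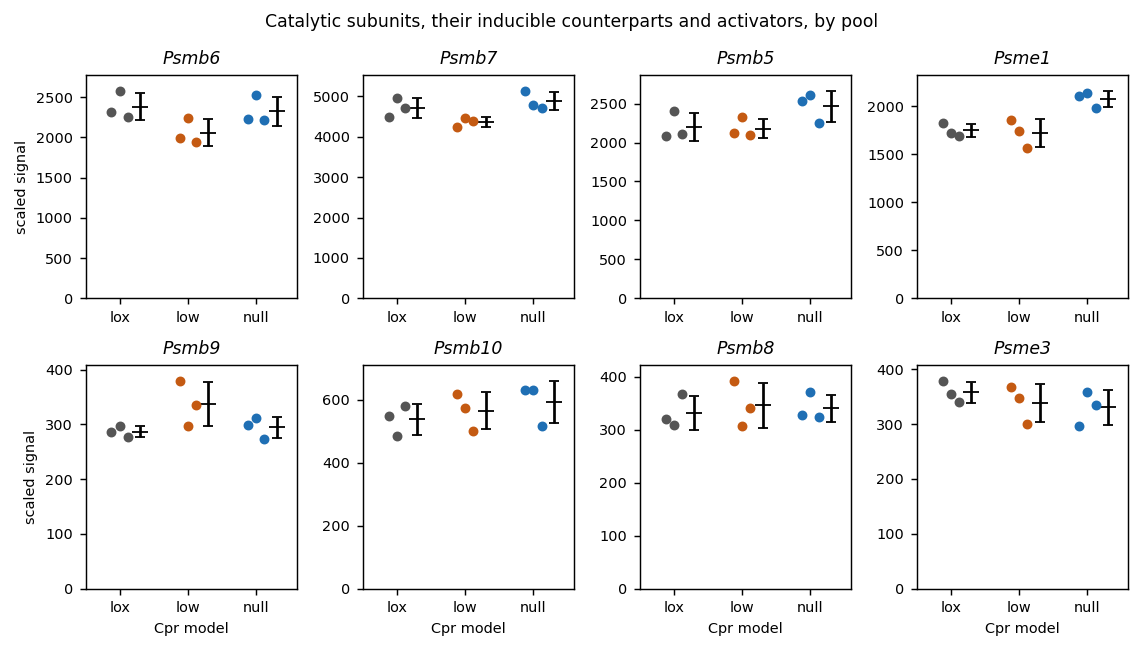
Scaled signal in each RNA pool of Cpr-lox (lox), Cpr-low (low) and liver-Cpr-null (null) livers for the constitutive catalytic subunits Psmb6, Psmb7 and Psmb5, above their inducible counterparts Psmb9, Psmb10 and Psmb8, and for the activators Psme1 and Psme3, with mean ± SD over 3 pools. Psmb8 and Psmb10 overlap between all models, while all liver-Cpr-null pools of Psme1 lie above the others.

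The constitutive beta subunits that do not cut, Psmb1 to Psmb4, were not called in either model. Psmb1 was at 3229, 3559 and 3408 in Cpr-lox and 2916, 2973 and 2788 in Cpr-low (-0.23, adjusted p = 0.09), and Psmb4 at 3016, 3232 and 2839 against 2542, 2714 and 2560 (-0.21, adjusted p = 0.127). Both were lower in every Cpr-low pool, and both were near their Cpr-lox level in liver-Cpr-null, at -0.04 and 0.01. Psmb2 was at 0.06 in Cpr-low and 0.05 in liver-Cpr-null. For Psmb3 the probe sets disagreed: the brightest was at -0.20 in Cpr-low and -0.22 in liver-Cpr-null, not called, and a dimmer probe set was called higher in both (0.36, adjusted p = 0.0358, and 0.57, adjusted p = 0.00219), so no direction is given for this gene.

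Psme1 is a subunit of the interferon-induced activator ring that opens the core particle without ATP. It was at 1823, 1727 and 1695 in Cpr-lox, 1855, 1748 and 1566 in Cpr-low, and 2108, 2138 and 1984 in liver-Cpr-null. Every liver-Cpr-null pool was above every other pool, yet the difference from Cpr-lox, 0.25 ± 0.08 (95% confidence interval 0.07 to 0.42), missed the threshold (adjusted p = 0.092). In Cpr-low it was -0.02 (adjusted p = 0.899). Psme3, the nuclear activator, was at 378, 355 and 340 in Cpr-lox, 367, 347 and 301 in Cpr-low, and 297, 359 and 335 in liver-Cpr-null, with overlapping groups (-0.08 and -0.11, not called). Psme4, a single-chain activator, was at 1074, 1125 and 1198, then 908, 1059 and 1051, then 1104, 906 and 1024 (-0.17 and -0.16, not called).

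Psmf1, an inhibitor of the core particle in the test tube, was at 829, 817 and 812 in Cpr-lox, 902, 833 and 836 in Cpr-low, and 819, 793 and 840 in liver-Cpr-null (0.06 and 0, not called). The core assembly chaperones Psmg1 to Psmg4, which build the alpha ring, lay between -0.07 and 0.06 in Cpr-low and between -0.03 and 0.20 in liver-Cpr-null, and 0 were called in limma, nor did any pass at an unadjusted p under 0.05. Psmg2 has a dimmer probe set that was called higher in liver-Cpr-null (0.35, adjusted p = 0.0252), while its brightest, with 261, 189 and 209 there against 172, 195 and 198 in Cpr-lox, was not (0.20, adjusted p = 0.352). Psmc3ip, a meiotic recombination partner, and Psme3ip1, which binds Psme3, were not called in any comparison.

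The third comparison set liver-Cpr-null against Cpr-low directly. Of the 46 members 2 were higher in liver-Cpr-null by the test and 0 lower, beside 8.42% of all genes called, 4.66% higher and 3.76% lower. At an unadjusted p under 0.05 in limma, 22 were higher and 1 was lower, beside 931 higher and 1388 lower of all 8879 genes. The log2 difference was above 0 for 34 members, beside 2726 of the 8879 genes. The members' median was 0.17, beside -0.08 over all genes. All liver-Cpr-null pools lay above all Cpr-low pools for 23 members (50% of those tested), beside 10.8% of all genes, and below them for 1 member (2.17%), beside 25.9%. The called genes were Psmd8, higher by 0.40 ± 0.07 (adjusted p = 0.00598), and Psma5, higher by 0.32 ± 0.09 (adjusted p = 0.0437). Psme1 was higher in every pool by 0.27 ± 0.08 but was not called (adjusted p = 0.0579). Within the second hybridization date, which holds Cpr-low pools 2 and 3 and all liver-Cpr-null pools, Psmd8 was higher by 0.44 (adjusted p = 0.0235) and Psma5 by 0.26 (adjusted p = 0.125), and the members' median was 0.15. With the deposited scaling 7 members were higher in liver-Cpr-null, beside 521 of all genes higher and 179 lower. With median scaling 6 members were higher, beside 524 of all genes higher and 131 lower. In the main setting 414 of all genes were higher and 334 lower, so the scaling shifted calls over all genes too.

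**Figure D5:**
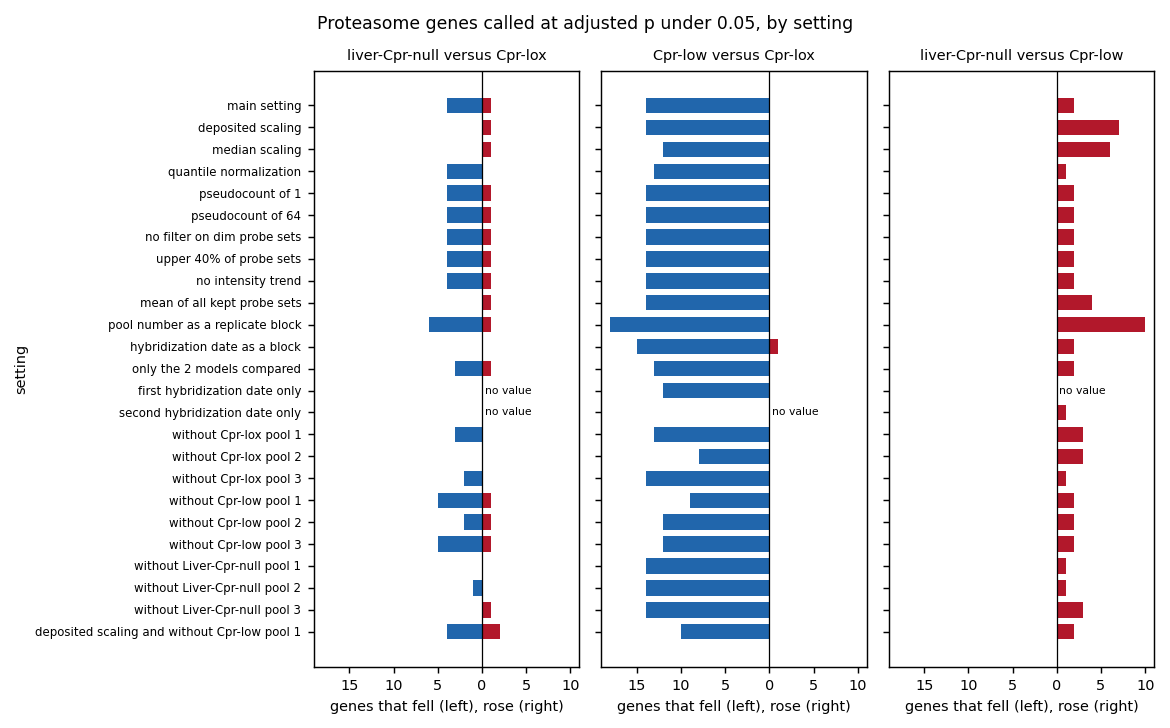
Number of the tested proteasome genes called at adjusted p under 0.05 under each setting (rows), drawn to the left for genes that fell and to the right for genes that rose, in the 3 comparisons. Falls in Cpr-low range from 8 to 18 genes, while calls in liver-Cpr-null against Cpr-lox range from 0 to 7; the row for the first hybridization date rests on 1 Cpr-low pool.

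Genes that work beside the proteasome were read from lists of partners, among which the lid subunit Sem1 was counted. Of 17 tested partners such as shuttle receptors, deubiquitinases and the segregase Vcp, 3 fell in Cpr-low and 0 rose (median -0.13), and 0 were called in liver-Cpr-null (median -0.08), where 2 were lower at an unadjusted p under 0.05 in limma. The genes that fell were Ubqln2, which shuttles ubiquitinated proteins to the proteasome (-0.48 ± 0.10, adjusted p = 0.0141), Nploc4, a cofactor of Vcp (-0.33 ± 0.08, adjusted p = 0.0205), and Ecpas, an adaptor of the whole protease (-0.32 ± 0.07, adjusted p = 0.0233). Ubqln2 was at 367 ± 21.2 in Cpr-lox, 261 ± 41.6 in Cpr-low and 410 ± 32 in liver-Cpr-null, and its level in liver-Cpr-null was higher than in Cpr-low by 0.63 ± 0.10 (adjusted p = 0.00235). Nfe2l1 itself was at 653 ± 61.7, 585 ± 40.8 and 620 ± 15.9 in the same order and was not called (-0.15, adjusted p = 0.388, in Cpr-low). Pomp, which matures the core particle, was at 0.04 in Cpr-low and 0.02 in liver-Cpr-null. None of 6 tested genes of ubiquitin supply and conjugation were called in either model by limma, and at an unadjusted p under 0.05, 2 were lower in Cpr-low and 0 differed in liver-Cpr-null.

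Other lists known to touch the proteasome were read in the same way. Over all genes 2.31% rose and 3.48% fell in Cpr-low, and 3.66% rose and 3.44% fell in liver-Cpr-null. Among 15 tested targets of Nrf2, a relative of Nfe2l1 that also binds the antioxidant core, 7 rose and 0 fell in Cpr-low (median 0.30), and 10 rose and 0 fell in liver-Cpr-null (median 0.75). Gstm1 rose by 0.76 ± 0.07 in Cpr-low (adjusted p = 7.89e-05) and by 1.04 ± 0.07 in liver-Cpr-null (adjusted p = 2.83e-06). Not all targets moved this way. The 5 not called in liver-Cpr-null were Gclc (-0.26), Gclm (0.06), Txnrd1 (0.12), Srxn1 (0.12) and Me1 (0.28). In Cpr-low Gclc rose (0.43, adjusted p = 0.0417), while 3 targets were below 0: Txnrd1 (-0.18), Srxn1 (-0.12) and Me1 (-0.18). Of 11 genes of class I antigen presentation 0 were called in Cpr-low (1 higher at an unadjusted p under 0.05 in limma) and 3 rose in liver-Cpr-null. These were H2-D1 (0.54 ± 0.07, adjusted p = 0.000587) and H2-K1 (0.30 ± 0.08, adjusted p = 0.0418), which encode class I heavy chains, and Tapbp, which loads them (0.52 ± 0.08, adjusted p = 0.00133). Tap1, which carries proteasome products into the endoplasmic reticulum and neighbours Psmb9 in the genome, was not called (-0.08, adjusted p = 0.754).

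Kupffer cell markers were higher in liver-Cpr-null. The summed signal of 13 Kupffer cell markers was 8229 to 8706 in Cpr-lox, 7511 to 8332 in Cpr-low and 11042 to 14390 in liver-Cpr-null, where 10 of the 13 rose, and 0 were called in Cpr-low. The summed signal of 12 hepatocyte markers was 227279 to 231186 in Cpr-lox, 225915 to 227890 in Cpr-low and 210212 to 213630 in liver-Cpr-null, where 3 of the 12 fell and 0 rose. The summed signal of 11 lymphocyte markers, 6 of them bright enough to be tested, was 1897 to 2150, 2003 to 2389 and 2015 to 2060. Of these 6, Ptprc alone was called, higher in liver-Cpr-null than in Cpr-lox (0.36 ± 0.08, adjusted p = 0.0153) and than in Cpr-low (0.39 ± 0.08, adjusted p = 0.00904). Ptprc is not restricted to lymphocytes, since other leukocytes such as Kupffer cells express it too. The 5 others lay between -0.10 and 0.04 in liver-Cpr-null against Cpr-lox. The summed signal of 7 stellate cell markers was 3583 to 4159 in Cpr-lox, 4208 to 4311 in Cpr-low and 4350 to 4521 in liver-Cpr-null, so both other models lay above Cpr-lox. Of the 7, Col3a1, a fibrillar collagen, rose in liver-Cpr-null (0.77 ± 0.13, adjusted p = 0.00262) and missed the threshold in Cpr-low (0.46 ± 0.13, adjusted p = 0.0518), where all 7 were above 0 and 0 were called in limma, with 1 higher at an unadjusted p under 0.05. The summed signals of the endothelial and neutrophil markers overlapped between all models. The part of stellate cells in the proteasome values was not tested. Immune cells are known to hold much Psmb8, Psmb9, Psmb10 and Psme1, and the part of Kupffer cells in the values of these genes and of Psmd8 in liver-Cpr-null was not tested. In Cpr-low, where 14 members fell, none of the 12 hepatocyte and 13 Kupffer markers were called in limma; at an unadjusted p under 0.05, 1 hepatocyte marker was higher, and 2 hepatocyte and 2 Kupffer markers were lower.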

How the data were processed

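Liver RNA of 3 models, 3 pools each, was measured on Affymetrix MOE430A arrays from 5 micrograms of total RNA per pool, per the labels' protocols. The deposited values are linear signal intensities, whole numbers with 1 per probe set; the steps that led to them (probe summary, background, scaling) are not given in the sources used here. Of 22690 probe sets 64 were controls, and 20380 of the others had 1 symbol in GEO's platform annotation. All 48 members had the same symbol in RefSeq.

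Signals were scaled to a common 2% trimmed mean and taken as log2(signal + 16). The brightest 60% of probe sets (mean log2 signal) were kept and each gene took its brightest one, which left 8879 genes. Members had 85 probe sets, and 17 had over 1 kept. A single limma 3.58.1 model in R 4.3.3 (lmFit, then contrasts, then eBayes with trend) covered the 9 arrays; its two-sided p-values were adjusted by Benjamini-Hochberg over all genes tested, and members were read out of it. The fit was tested on simulated data. The number of arrays limits the precision.

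The members and lists were chosen with earlier results of these data known. Members named are those called in any comparison, those below the filter, the inducible and catalytic beta subunits, the activators and Psmf1; the other members named, all uncalled, complete their role groups, and Tap1 was added after its values were seen. Alternatives changed the scaling, pseudocount, filter, intensity trend, probe set choice and block, or dropped single pools. Keeping the deposited scaling while leaving out Cpr-low pool 1 was chosen after seeing the data. Promoters came from RefSeq (GRCm38.p6), a build the arrays' files do not name. Plots used matplotlib 3.10.9 under Python 3.11.15.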

Additional observations from a re-analysis of the deposited data

How the results depend on the processing

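In Cpr-low against Cpr-lox the 14 calls were 12 to 18 under the other scalings, pseudocounts, filters, probe set choices and blocks, and 8 to 14 when 1 pool was left out; 10 were called with the deposited scaling and without Cpr-low pool 1, a setting chosen after seeing the data. The median stayed between -0.26 and -0.15. In liver-Cpr-null against Cpr-lox the 5 calls became 1 with the deposited scaling, 1 with median scaling, 1 with the mean of all kept probe sets and 0 with the hybridization date as a block, and 0 to 6 when 1 pool was left out; the median lay between -0.10 and -0.01. In liver-Cpr-null against Cpr-low the 2 calls became 7 with the deposited scaling, 6 with median scaling, 1 with quantile normalization, 4 with the mean of all kept probe sets and 1 within the second date, and 1 to 3 when 1 pool was left out, with medians of 0.24 and 0.26 under the deposited and median scalings. The cause of these shifts was not tested. In liver-Cpr-null against Cpr-lox the date block also lowered the calls over all genes, to 52 that rose and 97 that fell, from 325 and 305. No called direction was reversed under any setting run.

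Whether the pool numbers pair the samples was not settled, since differently numbered pools were not compared. Deviations of same-numbered pools correlated between -0.21 and 0.46. With the pool number as a replicate block 18 members were called in Cpr-low, 7 in liver-Cpr-null and 10 between the models. Calls over all genes grew as well. In Cpr-low 406 genes fell and 267 rose with this block, against 309 and 205 in the main setting. In liver-Cpr-null 834 genes were called, against 630. Between the models 542 were higher and 505 lower in liver-Cpr-null, against 414 and 334. Dim members (Psma8, Psmd10) lie under the filter, so their changes are poorly measured.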
